A study of Mus musculus with 16 samples.

Results

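Krt18, Arl5c, Apba1, Rasa4, Ppfia4 and Acvr1 are 6 genes whose known products belong to the cytoskeleton, to vesicle traffic, to synapse-type scaffolds and to signalling. They were grouped as non-immune, a label that does not exclude roles in immune cells. They were chosen by their measured log2 changes between Irf8-deficient and wild-type progenitors on these same arrays, for very large falls in both kinds of progenitor or in the later one. Their values in those cells therefore describe the choice and carry no test here. The array holds 8 probes for them, 1 each for Krt18, Arl5c, Apba1 and Rasa4 and 2 each for Ppfia4 and Acvr1, out of 20284 gene symbols with a probe. All 6 were above background in at least 1 group of progenitors, where 11963 genes were kept, and 4 of them in 32Dcl.3 cells, where 13337 genes were kept.

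The study measured RNA on 16 single-colour arrays in 8 groups of 2. Progenitors shared by monocytes and dendritic cells (MDPs), and the common monocyte progenitors (cMoPs) that arise from them, were sorted from bone marrow of Irf8-deficient mice (Irf8KO) and of wild-type mice (WT). The age and strain of the mice, the number pooled and the Irf8 allele are not given in the sources used here. 32Dcl.3 cells, a mouse myeloid progenitor line grown in medium conditioned by WEHI3B cells, received a pair of retroviral vectors and were collected after 3 days. The pair carried IRF8 and C/EBPalpha (both), IRF8 with an empty puromycin vector, C/EBPalpha with an empty CD8 vector, or no cDNA (empty vectors), so every 32Dcl.3 group had been transduced with a CD8 and a puromycin vector. The line is a single culture system, and its 2 experiments are described as independent. MDPs, cMoPs and 32Dcl.3 cells each occupied a slide of their own, so levels were compared within a slide.

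IRF8 is a transcription factor that binds DNA mostly together with partners such as PU.1, and it is needed for the monocyte and dendritic cell lineages. C/EBPalpha is a basic leucine zipper factor that drives granulocyte and monocyte commitment from earlier progenitors. Of the 6 products, keratin 18 forms intermediate filaments with keratin 8, Arl5c is a small GTPase of the ADP-ribosylation factor family, and Rasa4 is a Ras GTPase-activating protein. Apba1 (X11alpha, Mint1) is an adaptor that binds the amyloid precursor protein and the secretion protein Munc18, Ppfia4 is a liprin-alpha scaffold, and Acvr1 (ALK2) is a type I receptor for bone morphogenetic proteins and activin.

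A pair of promoter windows are shown because Rasa4 was among the genes that rose most with IRF8 in the line, and because Ppfia4 was the only gene with a match among the 5 that had a window. RefSeq windows on GRCm38.p6, from 250 bases before to 50 bases after the annotated start, were found for 5 of the 6 genes, 6 windows in all. The Rasa4 window is chr5:136083666-136083965 on the plus strand and the Ppfia4 window is chr1:134344667-134344966 on the minus strand. Capitals mark matches to GAGGAA, the core bound by PU.1.
Rasa4: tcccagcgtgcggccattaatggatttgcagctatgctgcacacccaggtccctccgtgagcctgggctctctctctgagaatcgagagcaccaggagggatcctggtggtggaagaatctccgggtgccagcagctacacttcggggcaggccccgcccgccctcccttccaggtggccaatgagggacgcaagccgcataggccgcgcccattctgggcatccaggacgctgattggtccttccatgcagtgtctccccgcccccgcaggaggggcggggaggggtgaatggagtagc
Ppfia4: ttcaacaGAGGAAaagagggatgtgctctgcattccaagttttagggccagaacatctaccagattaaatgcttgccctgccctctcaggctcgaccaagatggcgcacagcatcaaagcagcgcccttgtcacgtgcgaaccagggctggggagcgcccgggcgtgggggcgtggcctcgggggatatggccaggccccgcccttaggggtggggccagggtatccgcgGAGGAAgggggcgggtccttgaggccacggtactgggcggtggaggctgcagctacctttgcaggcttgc
Both strands were searched for GAAA followed after 2 bases by GAAA, a pair of IRF core sites, which occurs in 3.44% of 32851 RefSeq promoter windows of this length. The composite of an ETS and an IRF core was searched as GGAA followed after 2 bases by GAAA, found in 2.72% of windows, and as GAAA followed after 2 bases by GGAA, found in 2.80%. GAGGAA occurs in 28.3% of windows and the C/EBP core TTGCNNAA in 10.8%. The IRF pair shares a core with both composites. The Ppfia4 window held GAGGAA at -243 and at -20 from the start, and the windows of Krt18, Apba1, Rasa4 and Acvr1 and the other Ppfia4 window held none of the 5 motifs. A match is only a match of letters, and its absence covers these windows alone.

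Every level below is the log2 of a probe's signal over the 75th percentile of its array, so a level of 0 equals that percentile. It stood at 67.8 to 81.0 signal units for MDPs, 455.6 to 568.1 for cMoPs and 147.3 to 460.2 for 32Dcl.3 cells. The share of probes well above background was 37.3 to 44.8% in progenitors and 49.9 to 56.2% in 32Dcl.3 cells. Differences between arrays of a group had a standard deviation of 0.203 to 0.301 over genes. The SE of a change comes from a spread shared by the 8 arrays of a system. On each slide the position of an array and its condition cannot be told apart, since genotype, IRF8 and C/EBPalpha each followed a position number.

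The Irf8 probe gave 7.44 and 7.43 in Irf8KO MDPs, against 8.02 and 7.96 in WT MDPs. It gave 5.83 and 5.87 in Irf8KO cMoPs, against 7.33 and 7.34 in WT cMoPs. The gene was therefore lower but still bright on all 4 knockout arrays, and where the probe lies relative to the deleted part was not determined, so it does not check the deletion. In 32Dcl.3 cells the Irf8 and Cebpa probes were below background on all 8 arrays, those labelled as transduced with the factors included, so neither probe checks those labels. Of the 9 markers of MDP and cMoP identity 8 had a probe, and all 8 were detected on every progenitor array. Flt3, a receptor that marks MDPs, was at 4.76 and 4.74 in Irf8KO MDPs and 3.94 and 3.97 in WT MDPs. It was between -0.66 and -0.39 in cMoPs of both genotypes. The cMoPs lay on another slide, so stage and slide cannot be told apart in that difference. The 8 markers moved in both directions, 4 up and 4 down in Irf8KO MDPs and 2 up and 4 down in Irf8KO cMoPs. Over all genes 22.8% were called higher and 28.7% lower in Irf8KO MDPs, and 23% and 31.1% in Irf8KO cMoPs. Cd34, a surface protein of early progenitors, fell by 0.93 ± 0.034 in Irf8KO MDPs (limma adjusted p = 9.34e-09) and by 2.70 ± 0.034 in Irf8KO cMoPs (adjusted p = 2.12e-12). Cx3cr1, the fractalkine receptor, rose by 0.92 ± 0.052 in Irf8KO MDPs (adjusted p = 2.44e-07) and fell by 1.95 ± 0.052 in Irf8KO cMoPs (adjusted p = 4.65e-10). In Irf8KO cMoPs Csf1r, the M-CSF receptor, fell by 0.79 ± 0.034 (adjusted p = 1.52e-08), and Kit, the stem cell factor receptor, rose by 1.07 ± 0.045 (adjusted p = 1.46e-08). The part of these differences in the results for the 6 genes was not tested. In the line Kit and Cx3cr1 were not detected, whereas the other 5 of 6 markers listed for a myeloid line (Il3ra, Csf2rb, Csf3r, Mpo and Spi1) were.

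Krt18, the acidic keratin of simple epithelia, was 19.0-fold lower in Irf8KO MDPs and 31.9-fold lower in Irf8KO cMoPs. Its level was -0.25 and -0.39 in Irf8KO MDPs, against 3.98 and 3.88 in WT MDPs. It was -2.55 and -2.30 in Irf8KO cMoPs, against 2.57 and 2.58 in WT cMoPs. Both knockout arrays lay below both WT arrays at each stage and all 8 were well above background. The change was -4.25 ± 0.090 (SE) in MDPs, the 19th lowest of 11963 genes, and -5.00 ± 0.090 in cMoPs, the 11th lowest. With normexp background correction the changes were -3.27 and -3.93. In a bulk sample, fewer cells expressing a gene and less RNA per cell cannot be told apart. On all 8 arrays of 32Dcl.3 cells Krt18 was below background, at 2.92 to 12.1 signal units, so no change is given there.

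The usual partner of this keratin was not measured above background beside it. Krt8 and Krt19 were not detected on any of the 16 arrays, and neither were Epcam and Cdh1. Of the other epithelial markers in progenitors, Cldn4 was detected on both Irf8KO MDP arrays and on 1 WT MDP array, Krt7 on 1 WT MDP array and Esrp1 on all 4 cMoP arrays. The summed signal of the 7 epithelial markers, in multiples of the array's 75th percentile, was 0.828 to 0.872 in Irf8KO MDPs and 0.689 to 0.761 in WT MDPs. It was 0.665 to 0.728 in Irf8KO cMoPs and 0.514 to 0.543 in WT cMoPs. These sums come mostly from probes not above background, and neither of the 2 epithelial markers tested, Cldn4 and Esrp1, passed the threshold in either knockout (smallest limma adjusted p = 0.0636). Vim, the intermediate filament of mesenchymal and blood cells, fell by 0.48 ± 0.037 in Irf8KO MDPs (limma adjusted p = 2.27e-06) and by 0.79 ± 0.037 in Irf8KO cMoPs (adjusted p = 2.94e-08).

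Arl5c was 17.5-fold lower in Irf8KO MDPs and 23.8-fold lower in Irf8KO cMoPs, and it rose when IRF8 was added to 32Dcl.3 cells. Its level was -0.97 and -1.28 in Irf8KO MDPs, against 3.00 on both WT MDP arrays. It was -1.92 and -1.69 in Irf8KO cMoPs, against 2.74 and 2.79 in WT cMoPs. The groups did not overlap at either stage, and the changes were -4.13 ± 0.11 (22nd lowest) and -4.57 ± 0.11 (15th lowest), or -2.75 and -3.80 with normexp background correction.

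In 32Dcl.3 cells Arl5c was at 2.70 and 2.74 with both factors, 0.99 and 0.93 with IRF8, -1.74 and -1.59 with C/EBPalpha and -2.19 and -2.30 with empty vectors. The 4 groups stood in that order with no overlap and every array was well above background. IRF8 over empty vectors gave 3.21 ± 0.072, a 9.25-fold rise (limma adjusted p = 8.09e-12) that was the 76th highest of 13337 genes. Both factors over C/EBPalpha alone gave 4.38 ± 0.072, a 20.9-fold rise (adjusted p = 3.22e-13) and the 36th highest. With normexp background correction these changes were 2.56 and 3.39, still past the threshold. C/EBPalpha over empty vectors gave 0.58 ± 0.072 (adjusted p = 1.05e-05), and both factors over IRF8 gave 1.76 ± 0.072 (adjusted p = 2.51e-10), or 1.06 with arrays scaled to their median. These comparisons share groups, so they are not independent of each other. The IRF8 change was larger with C/EBPalpha than without it, with a difference of 1.17 ± 0.10 (95% confidence interval 0.95 to 1.40, limma adjusted p = 1.41e-06).

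The closest relatives of Arl5c had smaller measured changes. Arl5a fell by 0.48 ± 0.13 in Irf8KO MDPs (adjusted p = 0.00995) and by 0.82 ± 0.13 in Irf8KO cMoPs (adjusted p = 0.000332). Arl5b changed by 0.12 ± 0.12 in Irf8KO MDPs (adjusted p = 0.423) and by -0.01 ± 0.12 in Irf8KO cMoPs (adjusted p = 0.966), neither past the threshold. With IRF8 in the line, Arl5a changed by -0.18 ± 0.077 (adjusted p = 0.0768) and Arl5b by 0.05 ± 0.088 (adjusted p = 0.688), again not past it.

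Rasa4, which switches off Ras after calcium signals, was 9.91-fold lower in Irf8KO MDPs and 35.6-fold lower in Irf8KO cMoPs, and was the other gene of the 6 with a large rise under IRF8. Its level was 2.63 and 2.52 in Irf8KO MDPs, against 5.90 and 5.87 in WT MDPs. It was -0.63 and -0.60 in Irf8KO cMoPs, against 4.51 and 4.57 in WT cMoPs. All 16 arrays were well above background, and the knockout arrays lay below the WT arrays at both stages. The changes were -3.31 ± 0.047 (40th lowest) and -5.15 ± 0.047 (9th lowest), a difference between stages of -1.84.

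In 32Dcl.3 cells Rasa4 was at 4.33 and 4.30 with both factors, 3.72 and 3.80 with IRF8, 0.63 and 0.53 with C/EBPalpha and 0.01 and 0.13 with empty vectors. The arrays with IRF8, with or without C/EBPalpha, stood far above the other 4. IRF8 over empty vectors gave 3.69 ± 0.051, a 12.9-fold rise (limma adjusted p = 9.03e-14) that was the 56th highest of 13337. Both factors over C/EBPalpha gave 3.74 ± 0.051, a 13.3-fold rise (adjusted p = 8.25e-14). C/EBPalpha over empty vectors gave 0.51 ± 0.051 (adjusted p = 1.31e-06). Both factors over IRF8 gave 0.55 ± 0.051 (adjusted p = 5.85e-07), a direction that turned to -0.14 (adjusted p = 0.0659) when arrays were scaled to their median. The difference between the IRF8 changes with and without C/EBPalpha was 0.04 ± 0.072 (95% confidence interval -0.12 to 0.20, adjusted p = 0.644), and its sign and call depended on the scaling.

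Other Ras GTPase-activating genes moved in different directions. Rasal3, a regulator found mainly in blood cells, fell by 0.86 ± 0.064 in Irf8KO MDPs (limma adjusted p = 1.87e-06) and by 0.85 ± 0.064 in Irf8KO cMoPs (adjusted p = 1.43e-06). Rasa2 rose by 0.34 ± 0.098 (adjusted p = 0.0154) and 0.60 ± 0.098 (adjusted p = 0.000406) in the same cells, the first of which became 0.24 (adjusted p = 0.12) with median scaling. Rasa1 changed by 0.05 ± 0.099 and -0.18 ± 0.099, with adjusted p of 0.687 and 0.148. Rasa3 fell with IRF8 in the line, by 0.31 ± 0.034 (adjusted p = 1.27e-05), where Rasa4 rose.

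**Figure D1:**
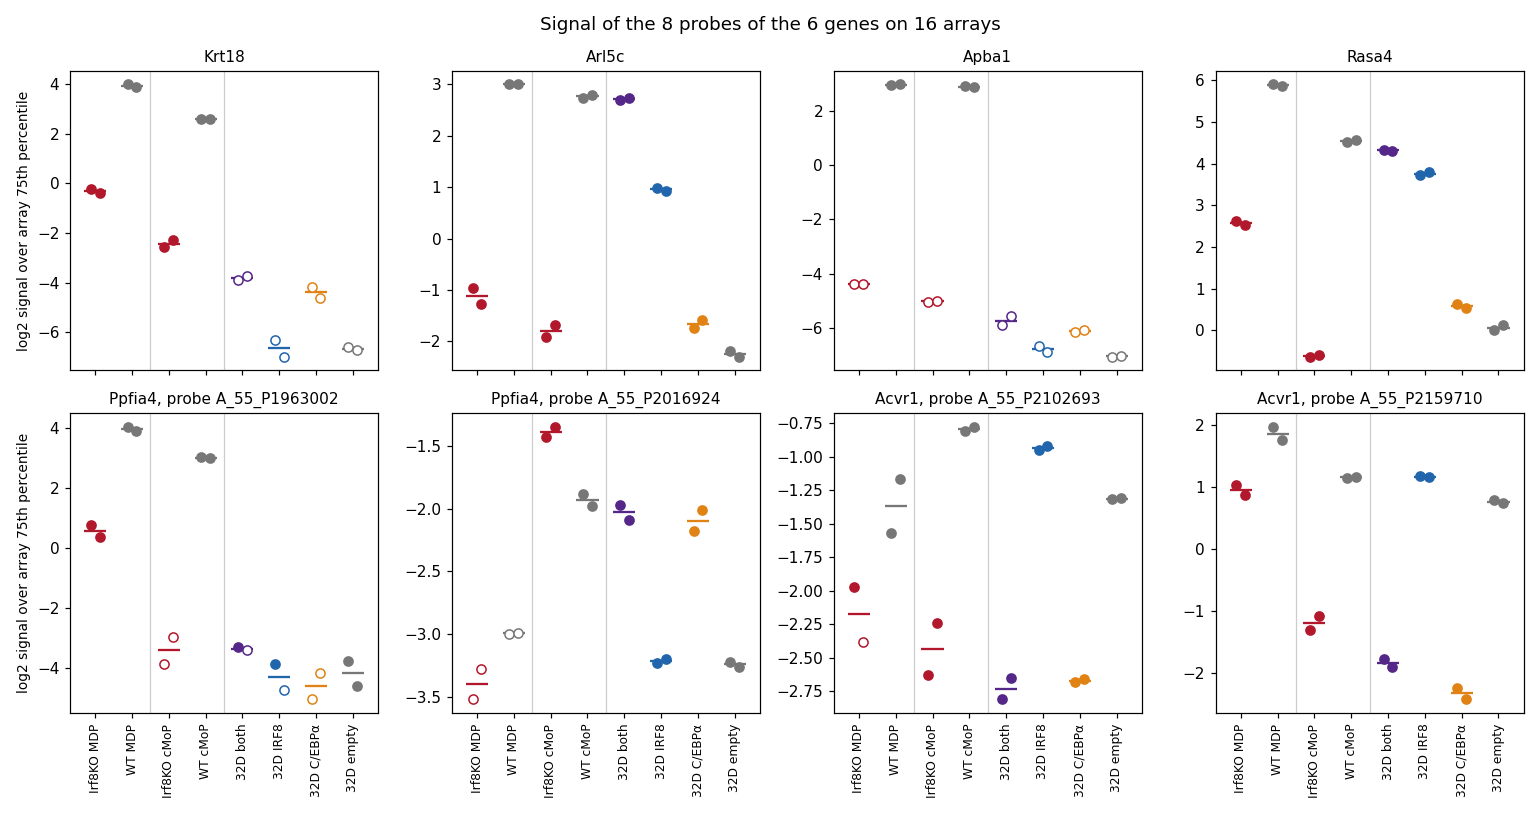
Log2 signal over the array's 75th percentile (y axis) on each of 16 arrays, by group (x axis), for the 8 probes of the 6 genes; points are arrays, bars group means, and hollow points arrays where the probe was not well above background. Arl5c and Rasa4 stand higher on the 4 arrays of 32Dcl.3 cells that received IRF8, whereas both Acvr1 probes are lower on the 4 that received C/EBPalpha.

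Apba1 was detected in WT progenitors and not in Irf8KO progenitors or in the line. Its level was -4.37 and -4.38 in Irf8KO MDPs, against 2.96 and 2.97 in WT MDPs. It was -5.04 and -4.99 in Irf8KO cMoPs, against 2.90 and 2.88 in WT cMoPs. In raw terms the probe gave 3.39 and 3.26 signal units in Irf8KO MDPs and 598 and 634 in WT MDPs. All 4 knockout arrays were not well above background, so the gene was at least 47.3-fold lower in Irf8KO MDPs and at least 63.9-fold lower in Irf8KO cMoPs, with measured changes of -7.34 and -7.91. With normexp background correction these were -3.22 and -5.17, smaller falls than the bounds, which therefore hold only for the scanner's own background subtraction. Such a bound sets the WT mean against the faintest signal that counted as above background, or the probe's own where that was higher. In 32Dcl.3 cells the probe gave 2.60 to 3.59 signal units and was below background on all 8 arrays, those with IRF8 included.

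Neither relative of Apba1 fell past the threshold. Apba3, the widely expressed member of the family, changed by -0.01 ± 0.056 in Irf8KO MDPs (limma adjusted p = 0.913) and by 0.18 ± 0.056 in Irf8KO cMoPs (adjusted p = 0.0226), which turned to -0.14 (adjusted p = 0.213) with arrays scaled to their median. Apba2 was below background in MDPs and changed by 0.20 ± 0.41 in Irf8KO cMoPs (adjusted p = 0.704). App, which encodes the amyloid precursor protein, fell by 0.76 ± 0.042 in Irf8KO MDPs (adjusted p = 2e-07), while Cask, a scaffold that joins Apba1 at synapses, rose by 0.64 ± 0.053 in Irf8KO MDPs (adjusted p = 4.13e-06).

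Ppfia4 was measured by a pair of probes for the same RefSeq accession that disagreed. Probe A_55_P1963002, the brighter in progenitors, was at 0.77 and 0.38 in Irf8KO MDPs, against 4.04 and 3.91 in WT MDPs. It was at -3.85 and -2.95 in Irf8KO cMoPs, both not well above background, against 3.03 and 3.01 in WT cMoPs. By that probe the gene was 10.5-fold lower in Irf8KO MDPs (-3.40 ± 0.23, 36th lowest). In Irf8KO cMoPs the measured change was -6.42 (5th lowest), and the bound over the mean of both arrays was at least 67.2-fold lower. With the fainter knockout array left out the change was -5.97, below that bound, and with normexp background correction it was -4.60.

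The other probe, A_55_P2016924, showed no such fall. It was at -3.52 and -3.28 in Irf8KO MDPs and -3.00 and -2.99 in WT MDPs, all below background. In cMoPs it was higher in the knockout, at -1.43 and -1.35 in Irf8KO cMoPs against -1.88 and -1.98 in WT cMoPs. Averaging the pair gave a change of -1.90 in Irf8KO MDPs and -2.94 in Irf8KO cMoPs, so the size of the fall rests on the choice of probe.

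In 32Dcl.3 cells A_55_P2016924 was the brighter, at -1.97 and -2.09 with both factors, -3.23 and -3.20 with IRF8, -2.18 and -2.01 with C/EBPalpha and -3.22 and -3.26 with empty vectors. The arrays with C/EBPalpha were the higher ones after scaling. C/EBPalpha over empty vectors gave 1.14 ± 0.15 (limma adjusted p = 1.57e-05), which became 0.36 (adjusted p = 0.21) with the mean of both probes. In signal units the probe gave 48.1 and 53.3 with C/EBPalpha, 39.3 and 34.5 with both factors and 49.6 and 46.4 with empty vectors. The 75th percentile was 218.3 and 214.6 with C/EBPalpha, 153.8 and 147.3 with both factors and 460.2 and 445.3 with empty vectors. The rise with C/EBPalpha therefore rests on the scaling of a faint signal. IRF8 over empty vectors gave 0.03 ± 0.15 (95% confidence interval -0.30 to 0.35, adjusted p = 0.903). The progenitor probe, A_55_P1963002, ranged from -5.04 to -3.29 in the line and was above background on 4 of its 8 arrays there.

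Among the other liprins, Ppfia1, the widely expressed alpha form, changed by -0.16 ± 0.071 in Irf8KO MDPs (limma adjusted p = 0.09) and -0.10 ± 0.071 in Irf8KO cMoPs (adjusted p = 0.25). Ppfia3 changed by 0.00 ± 0.080 (adjusted p = 0.969) in Irf8KO MDPs and rose by 0.41 ± 0.080 (adjusted p = 0.00142) in Irf8KO cMoPs, or 0.09 (adjusted p = 0.46) with median scaling. Ppfibp2, a beta liprin that can pair with the alpha forms, fell by 1.46 ± 0.083 in Irf8KO MDPs (adjusted p = 2.51e-07) and by 1.38 ± 0.083 in Irf8KO cMoPs (adjusted p = 2.26e-07).

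Acvr1 had the mildest falls of the 6 in progenitors and fell with C/EBPalpha in the line. Its brighter probe, A_55_P2159710, was at 1.02 and 0.86 in Irf8KO MDPs, against 1.96 and 1.75 in WT MDPs. It was at -1.32 and -1.09 in Irf8KO cMoPs, against 1.14 and 1.16 in WT cMoPs. The knockout arrays were below the WT arrays at both stages, by 0.92 ± 0.10 in MDPs (1.89-fold, 434th lowest of 11963) and by 2.36 ± 0.10 in cMoPs (5.12-fold, 125th lowest). The fainter probe, A_55_P2102693, changed by -0.80 and -1.64 in the same cells.

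In 32Dcl.3 cells Acvr1 was at -1.78 and -1.91 with both factors, 1.17 and 1.15 with IRF8, -2.24 and -2.43 with C/EBPalpha and 0.78 and 0.73 with empty vectors. All 4 arrays with C/EBPalpha lay below all 4 without it. C/EBPalpha over empty vectors gave -3.09 ± 0.084, an 8.50-fold fall (limma adjusted p = 8.88e-12) that was the 15th lowest of 13337 genes. It was -2.12 with normexp background correction and -2.22 with the mean of both probes, past the threshold in each. Both factors over IRF8 gave -3.01 ± 0.084 (adjusted p = 6.99e-12), the 32nd lowest, or -2.14 with normexp, -2.40 with the mean of both probes and -3.71 with median scaling. IRF8 over empty vectors gave 0.41 ± 0.084 (adjusted p = 0.00174), and both factors over C/EBPalpha gave 0.49 ± 0.084 (adjusted p = 0.00024). The last of these became 0.14 (adjusted p = 0.224) when arrays were scaled to their median, and was -0.06 by the fainter probe. That probe fell by 1.36 with C/EBPalpha.

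The receptor's own pathway moved in both directions. Acvrl1 (ALK1), a sister type I receptor, fell by 1.05 ± 0.17 in Irf8KO MDPs (limma adjusted p = 0.000509) and by 1.13 ± 0.17 in Irf8KO cMoPs (adjusted p = 0.000226), but rose by 1.71 ± 0.065 with C/EBPalpha (adjusted p = 1.63e-10), where Acvr1 fell. Eng, the coreceptor endoglin, fell by 1.44 ± 0.079 in Irf8KO MDPs (adjusted p = 1.89e-07) and by 1.78 ± 0.079 in Irf8KO cMoPs (adjusted p = 2.14e-08). Id2, a target of this pathway and an inhibitor of helix-loop-helix factors, rose by 1.30 ± 0.092 in Irf8KO MDPs (adjusted p = 1.31e-06) and by 2.00 ± 0.092 in Irf8KO cMoPs (adjusted p = 2.86e-08). Id2 also rose by 2.35 ± 0.030 with IRF8 in the line (adjusted p = 4.32e-14). Bmpr1a and Bmpr1b, the other receptors for bone morphogenetic proteins of this class, were not detected on any of the 16 arrays.

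**Figure D2:**
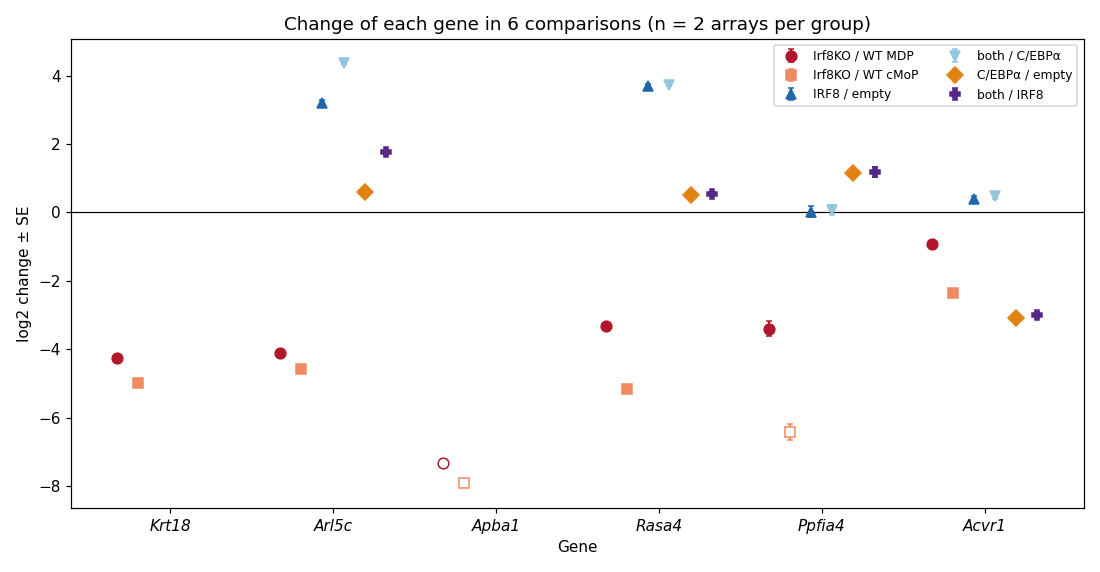
Log2 change with its SE (y axis) of each gene (x axis) in 6 comparisons, each of 2 arrays against 2; hollow symbols mark changes where the first group was not well above background. For Ppfia4 the knockout points come from probe A_55_P1963002 and the 32Dcl.3 points from A_55_P2016924, which disagreed in the progenitors. Arl5c and Rasa4 lie above 3 for IRF8 over empty vectors and Acvr1 lies near -3 for C/EBPalpha over empty vectors; Krt18 and Apba1 have no 32Dcl.3 points because they were below background.

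Set against all genes, the changes in the line were read as follows. Ppfia4 is counted here by probe A_55_P2016924, which showed no such fall in the knockouts. The probe that fell there, A_55_P1963002, was not the one fitted in the line. Over empty vectors it changed by -0.42 with C/EBPalpha, where it was not above background, and by 0.82 with both factors. Of the 4 genes tested, 3 rose with IRF8 over empty vectors (Arl5c, Rasa4 and Acvr1), where 22.7% of 13337 genes were called higher and 25.4% lower. With C/EBPalpha over empty vectors 3 rose (Arl5c, Rasa4 and Ppfia4) and 1 fell (Acvr1), where 31.6% of genes were called higher and 47.2% lower. With both factors over C/EBPalpha, 3 of 4 were higher (Arl5c, Rasa4 and Acvr1) and none was lower, against 34.4% and 37.9% of all genes. With both factors over IRF8, 3 of 4 were higher (Arl5c, Rasa4 and Ppfia4) and Acvr1 was lower, against 36.1% and 46.1%. Over empty vectors, both factors gave 4.97 for Arl5c, 4.25 for Rasa4, 1.21 for Ppfia4 and -2.60 for Acvr1, all past the threshold (largest limma adjusted p = 8e-06), where 38.1% of genes were called higher and 46.7% lower. Normexp took Arl5c to 3.99 and Acvr1 to -1.78, and median scaling took Arl5c to 4.31, Rasa4 to 3.59, Ppfia4 to 0.55 and Acvr1 to -3.26, each past the threshold. IRF8 over C/EBPalpha gave 3.49 for Acvr1, 3.18 for Rasa4, 2.63 for Arl5c and -1.12 for Ppfia4, again all past it (largest adjusted p = 2.1e-05), where 48.7% were called higher and 27.9% lower. The Ppfia4 call was lost with the mean of its probes (-0.41, adjusted p = 0.162), and normexp took Acvr1 to 2.47 and Arl5c to 1.96. The difference between IRF8 changes was called for 1 of 4, Arl5c, where 55.7% of all genes were called either way. With 4 genes such counts say little, and the sizes and ranks above carry the description. In the knockouts, where the genes were chosen, 22.8% of 11963 genes were called higher and 28.7% lower in MDPs, and 23% higher and 31.1% lower in cMoPs.

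**Figure D3:**
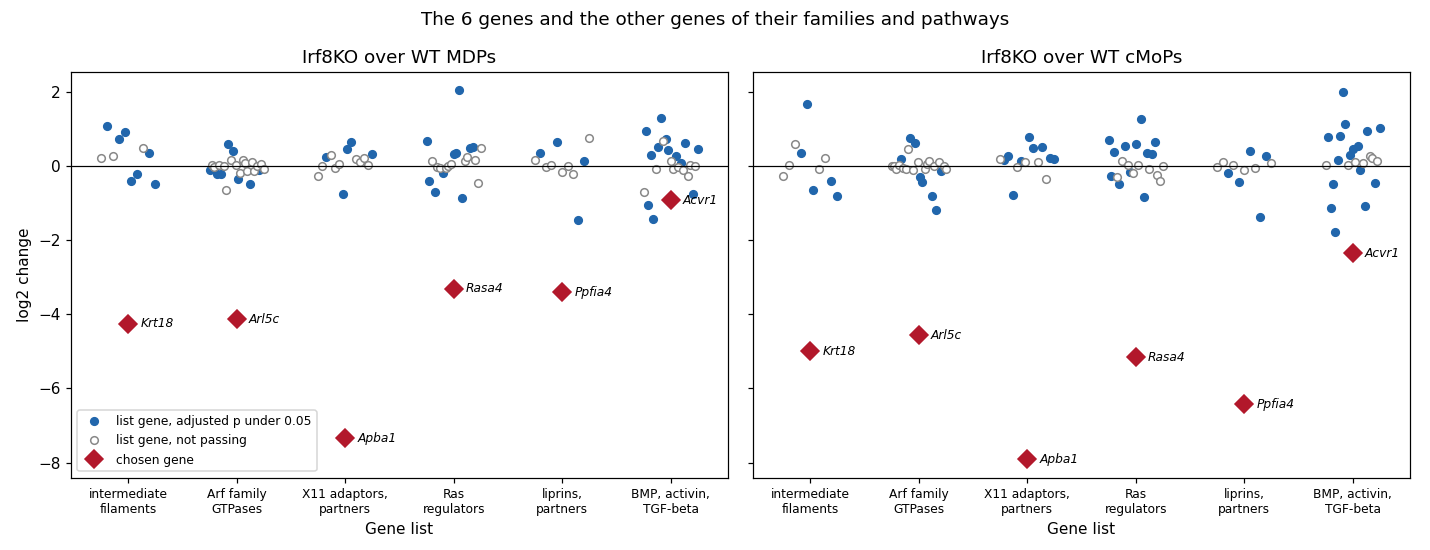
Log2 change (y axis) in Irf8KO over WT MDPs and cMoPs of the chosen genes (diamonds) and of the other genes of 6 family and pathway lists (circles, filled where the limma adjusted p was under 0.05). The list genes lie between -1.78 and 2.05; the diamonds show the values by which the 6 genes were chosen.

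Genes of the 6 families around the chosen ones changed in both directions. Scaling arrays to their median lowered every change by a common amount, and took the median over all genes to -0.12 in MDPs and -0.34 in cMoPs, so the counts of the second depend on the scaling. The counts below stand against 22.8% of all genes called higher and 28.7% lower in Irf8KO MDPs, and 23% and 31.1% in Irf8KO cMoPs. Of the 10 intermediate filament genes tested in Irf8KO MDPs, 4 rose and 3 fell, and in Irf8KO cMoPs 2 rose and 3 fell. Their median change was 0.31 in MDPs and -0.02 in cMoPs, against -0.02 over all genes in each. Krt80 rose by 0.73 ± 0.13 in Irf8KO MDPs (limma adjusted p = 0.000947), and the lamin gene Lmnb1 fell by 0.65 ± 0.036 in Irf8KO cMoPs (adjusted p = 1.3e-07).

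Of 24 Arf family GTPases, 2 rose and 6 fell in Irf8KO MDPs, and 3 rose and 5 fell in Irf8KO cMoPs, with medians of -0.02 and -0.00. That is 8.33% and 25% of the list in MDPs and 12.5% and 20.8% in cMoPs. With median scaling the cMoP counts became 2 and 18. Arl11, an Arf-like GTPase known from macrophages, rose by 0.58 ± 0.069 in Irf8KO MDPs (adjusted p = 5.64e-05) and Arl6, a GTPase of cilia, fell by 1.18 ± 0.18 in Irf8KO cMoPs (adjusted p = 0.000229). Of 14 X11 adaptors and partners, 4 rose and 1 fell in Irf8KO MDPs and 8 rose and 1 fell in Irf8KO cMoPs, with medians of 0.15 and 0.19, but 2 rose and 4 fell in cMoPs with median scaling. As shares of the list the first counts were 28.6% and 7.14% in MDPs and 57.1% and 7.14% in cMoPs. Bace1, the protease that cuts the amyloid precursor protein, rose by 0.79 ± 0.035 in Irf8KO cMoPs (adjusted p = 2.25e-08).

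Of 21 Ras regulators, 6 rose and 4 fell in Irf8KO MDPs and 8 rose and 4 fell in Irf8KO cMoPs, with medians of 0.13 and 0.03. These were 28.6% and 19.0% of the list in MDPs and 38.1% and 19.0% in cMoPs. With median scaling the cMoP counts became 4 and 10. Dab2ip, another Ras GTPase-activating protein, rose by 0.68 ± 0.058 and 0.71 ± 0.058 in the knockouts (adjusted p = 5.31e-06 and 2.65e-06). Of 11 liprins and partners, 3 rose and 1 fell in Irf8KO MDPs and 2 rose and 3 fell in Irf8KO cMoPs, where 0 rose and 6 fell with median scaling. The shares were 27.3% and 9.09% in MDPs and 18.2% and 27.3% in cMoPs. Of 23 genes of the BMP, activin and TGF-beta pathway, 10 rose and 3 fell in Irf8KO MDPs and 10 rose and 6 fell in Irf8KO cMoPs, with medians of 0.09 and 0.18. The genes that rose were 43.5% of the list in each, and those that fell in cMoPs 26.1%. With median scaling 7 rose and 7 fell in the cMoPs.

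With C/EBPalpha in 32Dcl.3 cells the Ras regulators had the lowest median of the 6 lists. Of 23 tested 5 rose and 17 fell, or 21.7% and 73.9%, against 31.6% and 47.2% of all genes. Their median was -0.51 against -0.14 over all genes. Spred1, an inhibitor of the Ras to ERK pathway, fell by 1.48 ± 0.065 (limma adjusted p = 5.54e-10), while Rasgrp4, a Ras activator of mast cells and neutrophils, rose by 1.85 ± 0.085 (adjusted p = 8.29e-10). With both factors over empty vectors, 18 of 26 genes of the BMP, activin and TGF-beta pathway rose and 4 fell, or 69.2% and 15.4% against 38.1% and 46.7% of all genes, but 8 rose and 13 fell with median scaling.

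Genes were then ranked by how closely their values on the 16 arrays, centred within each slide, followed those of each chosen gene. The measure was the root mean square difference in log2 over 11206 genes kept in both systems, a description over arrays that share slides. It includes the knockout arrays by which the genes were chosen, so nearness is not independent of that choice. Arl5c and Rasa4 were each other's nearest gene, at 0.40. After them came Phf11b at 0.78 and Phf11a at 0.80 for Arl5c, and Phf11b at 0.71 and Plxdc1 at 0.78 for Rasa4. Phf11a and Phf11b are near copies of each other, and their probes may not tell them apart.

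For Acvr1 the nearest genes were Etv5 at 0.31, Hbegf at 0.32 and Akr1c12 at 0.34. Etv5, a transcription factor induced by receptor tyrosine kinase signals, changed by -2.94 with C/EBPalpha, and Hbegf, a growth factor of the EGF family, by -2.28. For Ppfia4 (probe A_55_P1963002) the nearest was Klf4, a monocyte transcription factor, at 0.47, followed by Fgl1 at 0.83 and Stxbp6 at 0.84. That probe was not well above background on 6 of the 16 arrays. No nearest genes are given for Krt18 and Apba1, which were not well above background on 8 and 12 of the 16 arrays.

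**Figure D4:**
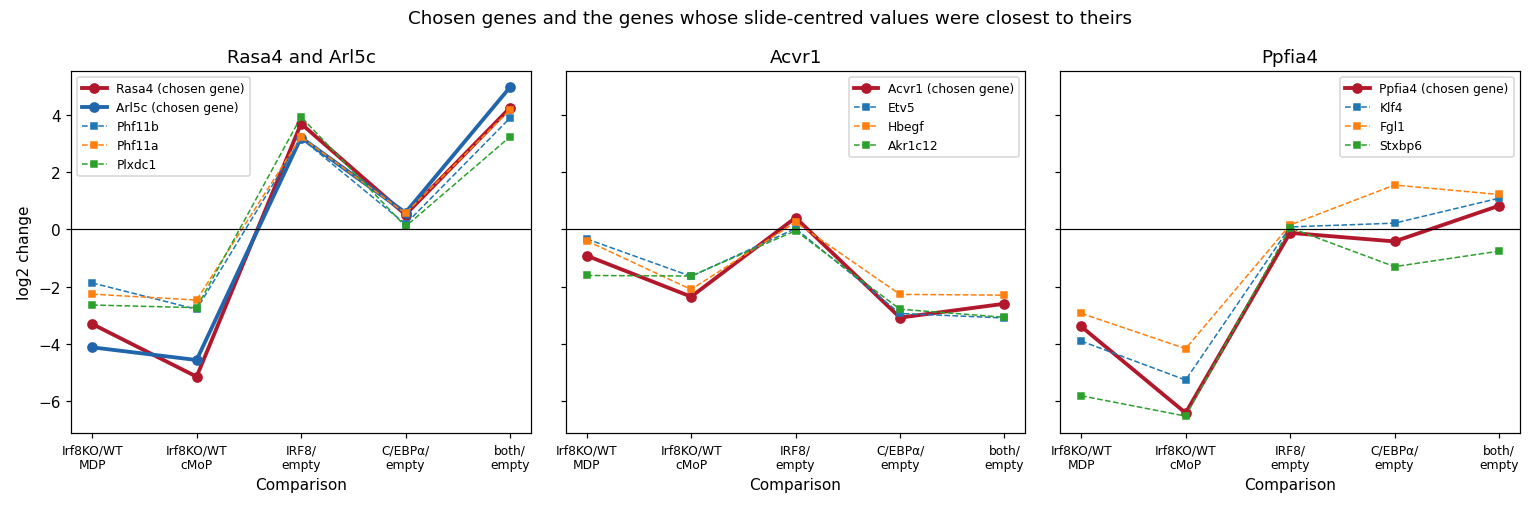
Log2 change (y axis) in 5 comparisons (x axis) of chosen genes (thick lines) and of the nearest genes by slide-centred values (dashed lines). Rasa4 and Arl5c fall in both knockouts and rise with IRF8, Acvr1 and its nearest genes are low with C/EBPalpha, and Ppfia4, by the probe used in progenitors, and Klf4 fall in the knockouts by -3.40 and -3.91 in MDPs.

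Markers of other cells also differed between genotypes, and their part in the results was not tested. The summed signal of the 9 erythroid markers was 0.716 to 0.882 in Irf8KO MDPs, with 0 of 9 detected, and 17.0 to 17.7 in WT MDPs, with 5 of 9 detected. It was 1.27 to 1.41 in Irf8KO cMoPs and 9.56 to 9.95 in WT cMoPs. Basophil, mast cell and eosinophil markers summed to 39.4 to 39.5 in Irf8KO MDPs and 56.1 to 58.3 in WT MDPs, and to 30.1 to 31.3 in Irf8KO cMoPs and 26.6 to 27.5 in WT cMoPs. T and NK cell markers summed to 197 to 204 in Irf8KO MDPs and 156 to 158 in WT MDPs, and to 121 to 125 in Irf8KO cMoPs and 61.5 to 62.3 in WT cMoPs. Such sums follow their brightest gene, so they do not give a share of cells. In MDPs most of the T and NK sum was Nkg7, at 7.60 in Irf8KO and 7.25 in WT. Cd3d and Cd3g were not detected on any progenitor array. Most of the basophil, mast cell and eosinophil sum in MDPs was Hdc, at 5.16 in Irf8KO and 5.34 in WT.

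B cell markers summed to 51.8 to 52.6 in Irf8KO MDPs and 36.6 to 37.6 in WT MDPs, and to 16.1 in Irf8KO cMoPs and 15.5 to 15.7 in WT cMoPs. Most of that sum in MDPs was Cd79b, at 5.34 in Irf8KO and 5.15 in WT. Dendritic cell markers summed to 160 to 165 in Irf8KO MDPs and 140 to 146 in WT MDPs. Mature macrophage markers summed to 5.45 to 5.66 in Irf8KO MDPs and 3.19 to 3.37 in WT MDPs, and to 6.03 to 6.04 in Irf8KO cMoPs and 2.85 to 2.91 in WT cMoPs. Stromal and endothelial markers summed to 39.0 to 39.5 in Irf8KO MDPs and 27.8 to 32.8 in WT MDPs. Of the 5 erythroid markers tested, 4 fell in Irf8KO MDPs and 3 in Irf8KO cMoPs, and none rose. Over all genes 28.7% and 31.1% were called lower. None of these 5 was detected in Irf8KO MDPs, so a rise could hardly be called there and the falls are no separate result. The haemoglobin gene Hbb-bt was detected in neither knockout. The filter therefore kept Hbb-bt only through WT groups, where it was high. All 7 basophil, mast cell and eosinophil markers tested fell in Irf8KO MDPs. Of these, Prg2, Cpa3 and Fcer1a were detected in WT MDPs and in no other progenitor group. The filter kept those 3 only through the group where they were high, so their falls there are no separate result. In Irf8KO cMoPs 3 of the 7 rose and 3 fell, where 23% of all genes were called higher and 31.1% lower. Of the 3 that fell, Prg2 and Cpa3 were not well above background in either genotype. The other was Gata2, a transcription factor of these cells and of early progenitors, which was at least 4.29-fold lower (measured -4.09). Gata2 was not detected in Irf8KO cMoPs and not on both Irf8KO MDP arrays. The filter kept Gata2 only through the WT groups, where it was high, so its falls are no separate result either.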

How the data were processed

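RNA of 16 samples, labelled with Cy3, was hybridised to Agilent mouse arrays. The deposited intensity values of each array were background-subtracted and spatially detrended by the scanner software, Agilent Feature Extraction 10.7.3.1, and carry genome build mm9, per the file headers. They were not normalized between arrays. The series table, deposited by the authors as scaled intensity values, equals the scanner values times a constant per array for MDPs and cMoPs and is quantile normalized for 32Dcl.3 cells. It was used as an alternative only.

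Outlier spots were dropped, spots of a probe averaged, and log2 taken relative to each array's 75th percentile. Progenitors and 32Dcl.3 cells were analysed as separate systems. In each, probes had to be well above background on both arrays of some group, and the brightest probe stood for a gene. Of 55681 probes 26762 matched 1 symbol through their RefSeq accession in the GRCm38.p6 table, 28919 matched none and 0 several. Group means over the 8 arrays of a system were fitted in R 4.3.3 with limma 3.58.1, using eBayes with an intensity trend. Two-sided p values were adjusted by Benjamini and Hochberg over all genes kept, at 0.05. Residual degrees of freedom were 4, and 2 arrays per group limit the precision. Figures were drawn with matplotlib 3.10.9.

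The 6 genes and all gene lists were chosen with earlier results of these data known. Named genes were the 6 with all their probes, the targeted genes, the 3 nearest genes of each, up to 3 changed genes per list and direction that were above background on all arrays compared, and close relatives of the 6. Not every gene the rule allows is described. Where a group was not well above background a bound on the fold is given.

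Same-numbered arrays did not deviate together, with residual correlations of -0.025 to 0.071 in progenitors and -0.065 to 0.054 in 32Dcl.3 cells, so the experiment number was not used as a block. The labels call the 2 experiments independent but do not say that the samples came from separate animals, so p values measure the spread between these samples. Alternatives were other scalings, quantile normalization, normexp background correction, other filters, the mean of probes, no trend, only the arrays compared, the series table, the block and leaving out each array.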

Additional observations from a re-analysis of the deposited data

Results flagged for a closer look

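Arl5c responded to IRF8 by different amounts with and without C/EBPalpha in 32Dcl.3 cells. Both factors over C/EBPalpha gave 4.38, and IRF8 over empty vectors gave 3.21, a difference of 1.17 ± 0.10 on the log2 scale by the limma interaction term (adjusted p = 1.41e-06). Over the 10 alternatives that keep every array the difference was 0.78 to 1.71, with adjusted p of at most 0.000388, and with any 1 array left out it was 1.10 to 1.25. The difference also contains C/EBPalpha's smaller change without IRF8, 0.58, than with it, 1.76, since both readings are the same quantity. The fit calls this difference for 55.7% of all genes.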

How the results depend on the processing

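Of 528 recomputed values of the tested changes in 32Dcl.3 cells, 518 kept their side of the threshold, and also their direction where they passed it. Values that missed the threshold both times were counted among the 518 even where their sign turned. The Acvr1 interaction, for instance, was 0.08 as given and as low as -0.31. Scaling to the array median reversed Rasa4 in both factors over IRF8 (-0.14) and its IRF8 by C/EBPalpha interaction (-0.35, adjusted p = 0.00409), which was 0.32 (adjusted p = 0.00237) with quantile normalization and 0.38 (adjusted p = 0.000171) in the series table. It took Acvr1 in both factors over C/EBPalpha to 0.14. The mean of probes took Ppfia4 to 0.36 with C/EBPalpha over empty vectors, to -0.41 (adjusted p = 0.162) in IRF8 over C/EBPalpha and to 0.66 (adjusted p = 0.0362) in both factors over C/EBPalpha. With normexp, Ppfia4 was 0.21 (adjusted p = 0.0197) in IRF8 over empty vectors and 0.20 (adjusted p = 0.0171) in both factors over C/EBPalpha. The cause was not tested. All 224 recomputed knockout values of the 6 genes stayed negative. Normexp made these falls smaller, and leaving out an Irf8KO cMoP array moved Ppfia4 between -6.87 and -5.97. The 170 recomputed counts of called genes were within 1.5 times of those given. Scaling to the median moved the median change of all genes to -0.12 in Irf8KO MDPs, -0.34 in Irf8KO cMoPs, -0.45 with C/EBPalpha, -0.75 with both factors over empty vectors and -0.78 with both factors over IRF8. The share of called genes that were higher went with it, as 28.6% by median and 44.3% as given in Irf8KO MDPs, 13.4% and 42.5% in Irf8KO cMoPs, 59.3% and 47.2% with IRF8, 25.2% and 40.1% with C/EBPalpha, 22.0% and 44.9% with both factors over empty vectors, 20.3% and 47.6% with both over C/EBPalpha, 16.1% and 43.9% with both over IRF8, 81.0% and 63.6% with IRF8 over C/EBPalpha, and 9.3% and 42.8% for the interaction. When the percentile was taken over detected probes, this share became 52.9% for C/EBPalpha, 56.8% with both over empty vectors 59.1% with both over IRF8, 48.3% with IRF8 over C/EBPalpha and 54.3% for the interaction, and with normexp 33.5% in Irf8KO MDPs. With the experiment number as a block, 6319 genes were called for IRF8 and 10492 for C/EBPalpha over empty vectors, and no call of the 6 genes changed. The interaction needs all 4 groups, so it has no value from 4 arrays. Signal over background limits Krt18 and Apba1 in 32Dcl.3 cells and Apba1 and Ppfia4 in the knockouts.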
